A study of Arabidopsis thaliana with 8 samples.

Results

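Plates TC17 to TC30 are a stretch of low ratios on a tiling array of chromosome 4 of Arabidopsis thaliana, measured by chromatin immunoprecipitation (ChIP) of histone H3 dimethylated at lysine 4 (H3K4me2). Each feature of the array, a tile, is named by plate and well, and the stretch holds the 1098 tiles of 13 plates (TC26 is not among them) that had values in all 4 replicates, of 21285 such tiles on 231 plates, or 5.16%. The plates were chosen by their low median ratio in these same arrays, so their level, and the counts of calls on it, are given as a description and are no test. All samples were whole 10-day-old seedlings of the reference accession Col-0, untreated, grown in liquid medium, with every cell type of the seedling mixed. In each of 4 replicates, immunoprecipitated (IP) DNA and input DNA, each from 50 ug of chromatin, were compared on 2 arrays with the dyes exchanged. There is a single group, so the comparisons are between tiles, plates and replicates.

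Histone H3 is methylated at lysine 4 by methyltransferases of the Trithorax type, and the dimethyl form lies mostly over genes in plants, active or not. It is scarce over the silent, repeat-rich heterochromatin around centromeres, where DNA methylation and H3K9 dimethylation are found instead. Chromosome 4 of Col-0 carries heterochromatin around its centromere and in a knob on its short arm. The tile names give no position on the chromosome and the files at hand pair no tile with a gene or a sequence, so where these plates lie was not determined.

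Each deposited value sets 1 channel against the other on a log scale, read here as log2, and the sources do not say which channel is divided by which. High and low therefore refer to the deposited sign, with no statement on which side the antibody enriched. The arrays of each dye swap held identical values in all 21800 rows of the table, which leaves 1 value per tile and replicate. Each replicate was centred on the median of its 21285 tiles, so that 0 is the median tile of the array. Replicates 1 and 2 share a number in their titles, as do 3 and 4. The IP chromatin of replicates 2, 3 and 4 is ascribed to seedling batch II and that of replicate 1 to batch I, while the input chromatin of each replicate is ascribed to a batch of its own, I to IV. The p-values thus rest on the variation among these 4 replicates, and for the IP side of replicates 2 to 4, which share a batch, that variation may be technical. The main fit of tile level also took the 4 replicates as independent. Replicates 1 and 3, and 2 and 4, were more alike than the other pairs, so its p-values may be too small.

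The tiles of TC17 to TC30 had median log2 ratios of -2.57, -1.88, -2.59 and -1.90 in replicates 1 to 4. Replicates 1 and 3 were the low pair and replicates 2 and 4 the less low pair, and their lower quartiles were -3.07, -2.40, -3.10 and -2.40. The mean of the medians was -2.24 ± 0.40 (SD, n = 4), a level 4.71-fold from the median tile. By tile mean, 128 tiles lay below -3, 537 between -3 and -2, 306 between -2 and -1, 87 between -1 and 0, and 40 above 0. Tiles above 0 made up 3.64% of these plates and 50.2% of the array, and tiles below -3 made up 11.7% and 3.12%. All 4 replicates were below 0 for 1027 tiles, or 93.5%, against 43.2% of all tiles, and all 4 were above 0 for 23 tiles, against 43.0%. In limma, 1022 of the 1098 tiles were called below the median tile and 22 above, at an adjusted p under 0.05, with 41.9% and 42.1% of all tiles called in these directions. These counts use the contrast by which the plates were chosen, and nothing is read from them. With the values as deposited 5 tiles were called above 0.

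The level differed among the 13 plates. Plate TC19 was the lowest, with medians of -2.93, -2.20, -2.90 and -2.14 in replicates 1 to 4, a mean of -2.54 ± 0.43. Plate TC30 was the least low, with -1.48, -1.27, -1.79 and -1.36, a mean of -1.48 ± 0.23, and its values did not overlap those of TC19. The 7 plates TC19, TC20, TC24, TC22, TC27, TC25 and TC21, in rising order, lay between -2.54 and -2.39. Plates TC23 and TC18 followed at -2.17 and -2.07, then TC28 at -1.90, TC29 at -1.70 and TC17 at -1.67. The plates next to each other in this order overlapped over the replicates in all 12 steps, and only TC29 was above its lower neighbour, TC28, in 4 of 4 replicates, by 0.20 ± 0.21. The order was similar between replicates, with a rank correlation over the 13 plates of 0.88 for replicates 1 and 3, 0.90 for 2 and 4, and 0.65 to 0.75 for the other pairs. The plates share their arrays, so this is a description. By number, the first plate and the last 3 were thus the least low. The SD between plate medians was 0.38 ± 0.01, against 0.46 ± 0.10 over the 10 plates TA21 to TA30 and 0.25 ± 0.05 over the 15 plates TA37 to TA51, the other long runs of low plates.

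**Figure D1:**
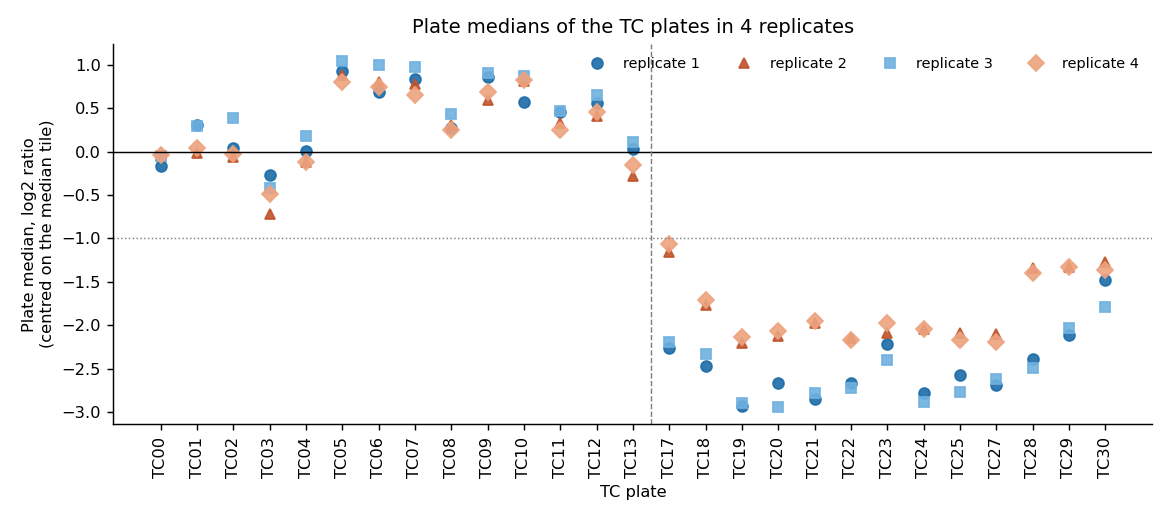
Median log2 ratio of each TC plate (y axis, centred on the median tile) in replicates 1 to 4 (symbols), in plate order (x axis); the dotted line is the limit of -1 and the dashed line separates TC13 from TC17. All symbols of TC17 to TC30 lie below -1, with replicates 1 and 3 below 2 and 4, while those of TC00 to TC13 lie at -0.72 or higher.

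All 13 plates had a median below -1 in all 4 replicates, the limit used here to call a plate low. On the whole array 43 of 231 plates met it. TC17 lies just inside that limit, with medians of -2.27, -1.16, -2.19 and -1.07. The lowest TC plate outside it is TC03, with -0.27, -0.72, -0.42 and -0.49. TC13, the plate numbered next below TC17 among those present, had 0.03, -0.28, 0.11 and -0.15, and plates TC14 to TC16 are not among the rows analysed here.

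The lowest tile was TC24D02, at -5.21, -4.28, -4.92 and -4.34 in replicates 1 to 4, a mean of -4.69 ± 0.45. It was low in every replicate, 25.8-fold from the median tile. Tiles TC19C02, TC19C06, TC20A02 and TC18G01 followed with means of -4.30, -4.08, -4.02 and -3.92. The highest tile, TC25B01, had 1.52, 1.76, 1.61 and 1.58, a mean of 1.62 ± 0.10. Tile TC25A06 followed at 1.56 ± 0.46, TC17E10 at 1.26 ± 0.96, TC30B04 at 1.22 ± 0.26 and TC25B04 at 1.18 ± 0.43. The span from TC24D02 to TC25B01 was wider than the range of the replicates of either tile. They were picked as the lowest and the highest tile, so this is a description and no test.

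Along the wells, low tiles formed long unbroken runs. The plates were chosen by level and 93.5% of their tiles were below 0 in all replicates, so long runs were bound to occur. The run lengths are thus a description, and whether they exceed what that share gives was not tested. Counted in well order and across the border of consecutively numbered plates, the 1027 tiles below 0 in all replicates fell into 71 runs with a mean length of 14.5 wells. A blank well breaks a run, and 38 of the 71 runs had a blank at 1 end or both, among them 14 single tiles on TC25, so the counts and lengths rest in part on missing values. The longest held 173 wells, from TC19H03 to TC21F07, and took in the whole of plate TC20, with blank wells at both ends. Its tile means lay between -4.02 and -0.30. The next were TC23E04 to TC24C01 and TC24C03 to TC24H12, with 70 wells each, and TC22D09 to TC23A01 with 53, the last also between blanks. These 4 runs held 366 tiles. Plates TC19, TC20, TC21 and TC27 held only tiles below 0 in all replicates.

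**Figure D2:**
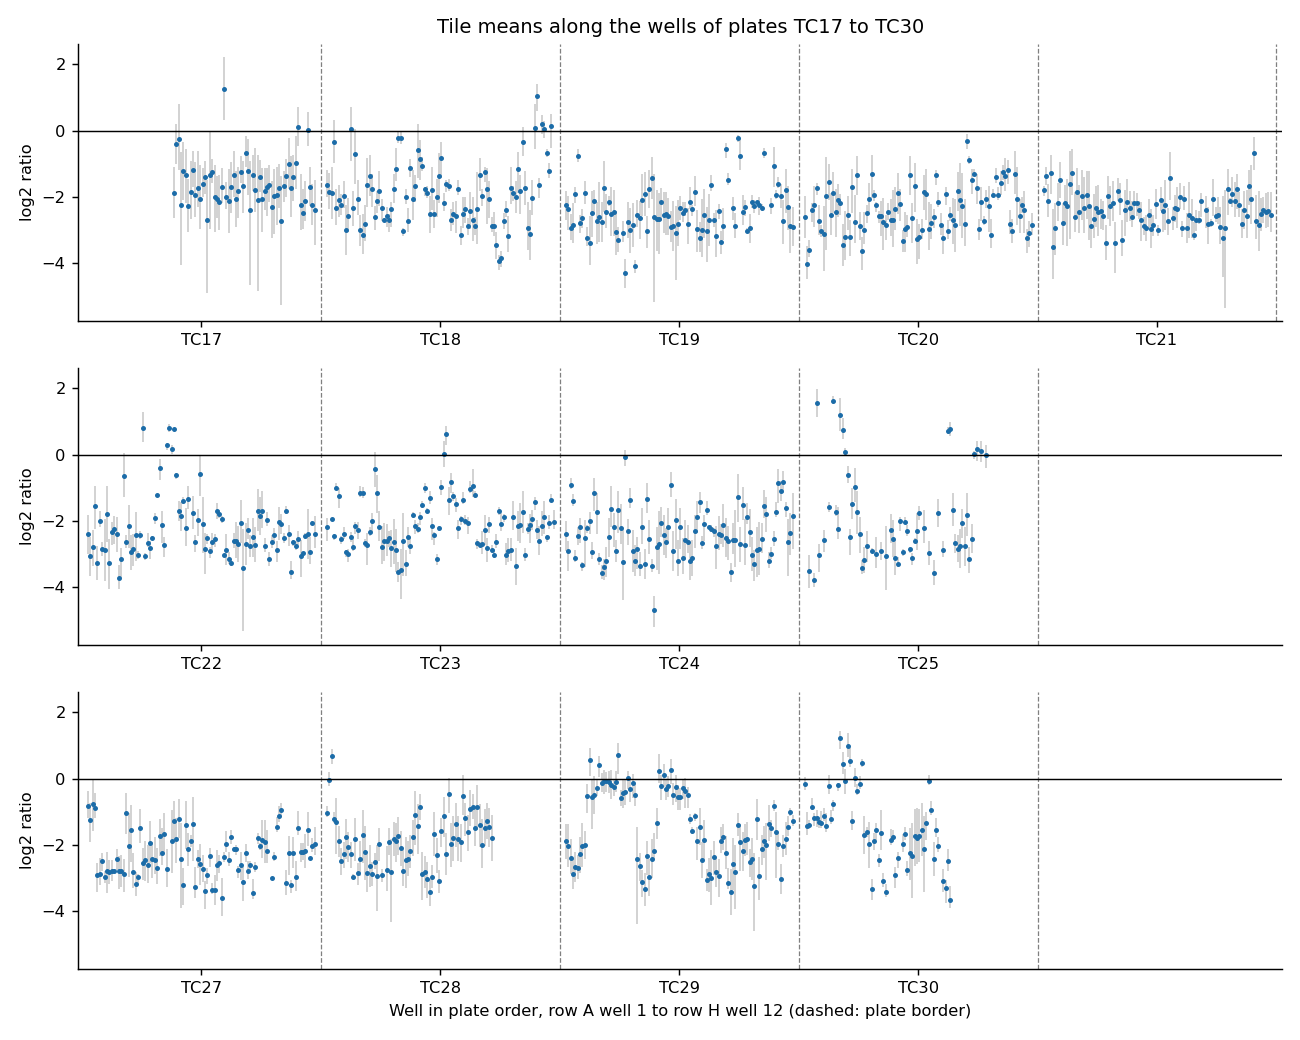
Mean log2 ratio of each tile (points, y axis) along the wells of plates TC17 to TC30 (x axis, row A to H, dashed lines at plate borders), with the range of the 4 replicates as grey lines. Most tiles lie between -3 and -1, and plate TC29 shows 2 flat stretches near 0 with low tiles on either side.

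The low run was interrupted by short stretches near the median tile. A rule set after the trace had been seen, a running median over 5 tiles above -1 for at least 5 tiles, found 6 stretches on 5 plates with 66 tiles, or 6.01%. Plate TC29 held the 2 longest with an even level. From TC29A10 to TC29C06, 21 tiles had medians of -0.44, 0.11, -0.53 and 0.0017 in replicates 1 to 4, and their means lay between -0.58 and 0.71. From TC29D04 to TC29E04, 13 tiles had -0.49, -0.0065, -0.66 and 0.0066. Both stretches were near 0 in replicates 2 and 4 and below it in 1 and 3, as the plate as a whole was lower in 1 and 3. The 5 tiles before the first stretch had a median of -2.28 and the 5 after it -2.75.

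Ratios changed over 1 or 2 wells at most of these borders on TC29. From well A09 to A10 the ratio rose by 1.49 ± 0.19 (SD, n = 4), and from A10 to A11 by a further 1.09 ± 0.07. From D03 to D04 it rose by 1.56 ± 0.28. At the ends it fell, by 1.91 ± 1.29 from C06 to C07, where replicate 1 alone fell by 3.84, and by 0.73 ± 0.41 from E04 to E05, a step little larger than the median step of 0.54 between neighbouring wells. All of these steps had the same sign in the 4 replicates. Row B of TC29, which lies wholly within the first stretch, had a median of -0.15 ± 0.32, and row F, outside both, -2.70 ± 0.64.

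The other stretches were more uneven. TC30A12 to TC30C01, 13 tiles, had a median of 0.05 ± 0.19, with tile means from -1.27 to 1.22. TC18H05 to TC18H11, 7 tiles at the end of plate TC18, had -0.18 ± 0.29, with means from -1.63 to 1.03. Row H of TC18 had a median of -0.69 ± 0.12, and rows A to G of that plate lay between -2.43 and -1.75. TC22C09 to TC22D02 had 0.23 ± 0.10 and TC25B03 to TC25B08 -0.27 ± 0.14 over 6 tiles each. Outside the 6 stretches, the other 1032 tiles had a median of -2.30 ± 0.41, close to the -2.24 of all tiles.

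The 23 tiles above 0 in all replicates lay on 8 of the 13 plates, and 15 of them were within these stretches. They formed 16 runs, 11 of them single tiles, and the longest was the 4 wells TC22C10 to TC22D01. At its start, TC22C10 had 0.33, 0.28, 0.36 and 0.14, and at its end TC22D01 had 0.74, 0.80, 0.72 and 0.78. TC22D01 varied little between replicates, with an SD of 0.03, but it was at -0.085 when centred on the mode. TC22C10 was below 0 in the values as deposited, at -0.32. Other high tiles stood alone. Tile TC25A06, with 1.12, 1.97, 1.20 and 1.94, had means of -3.77 and -3.04 in the wells on either side. Tile TC17E10, with 0.32, 1.94, 0.55 and 2.23, had -1.71 and -1.99 beside it, and its replicates fell into the same pairs as the low tiles. Of the 21 tiles with values on both sides, 8 had means below 0 in both neighbours.

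**Figure D3:**
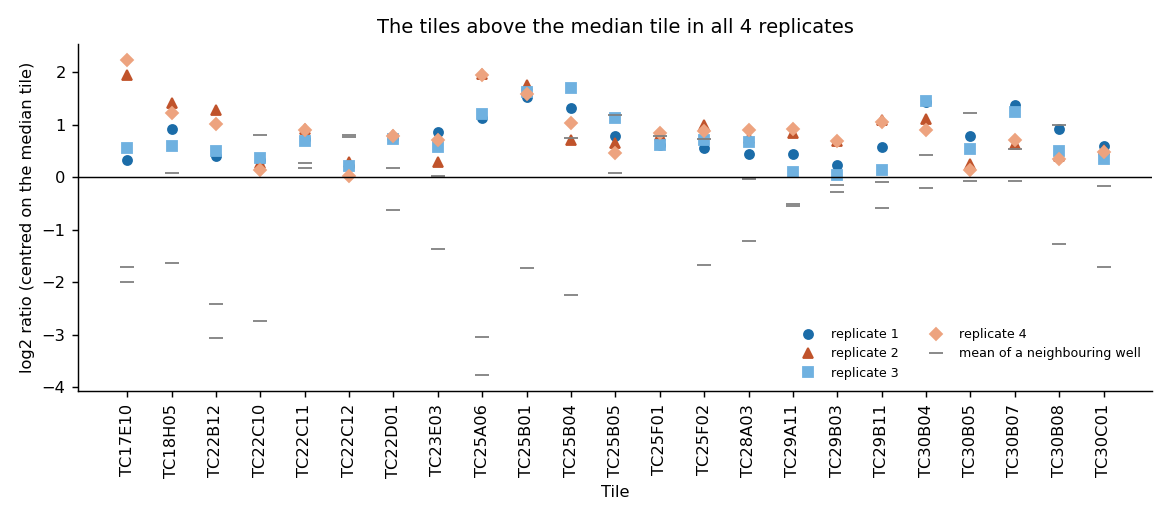
Log2 ratios (y axis) of the 23 tiles above the median tile in all 4 replicates (x axis, symbols by replicate), with the means of the neighbouring wells as grey dashes. Of 44 neighbouring wells 15 lie below -1, such as those of TC25A06 at -3.77 and -3.04, and TC17E10 spans 0.32 to 2.23 over its replicates.

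Neighbouring tiles had similar ratios within plates. The correlation across tiles 1 well apart, taken within each plate along its rows over 1054 pairs, was 0.55, 0.48, 0.54 and 0.47 in replicates 1 to 4. With each plate's median removed it was 0.44 ± 0.06 (SD, n = 4), against 0.63 ± 0.05 on TA21 to TA30, 0.51 ± 0.02 on TA37 to TA51 and 0.57 ± 0.01 on the 188 plates that are not low. At 3 wells it was 0.22, at 6 wells 0.15 and at 12 wells, a whole plate row, 0.03 ± 0.03. Down the plate columns, with medians kept, it was 0.14. Tiles 12 wells apart lie in the same column of neighbouring rows, so these are largely the same pairs. With medians kept they gave 0.15 ± 0.01. The correlation thus fell off within a few wells along a row. These correlations are across tiles that share arrays and are a description. The median step between neighbouring wells was 0.54 ± 0.02 in TC17 to TC30 and 0.56 ± 0.01 on the plates that are not low.

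**Figure D4:**
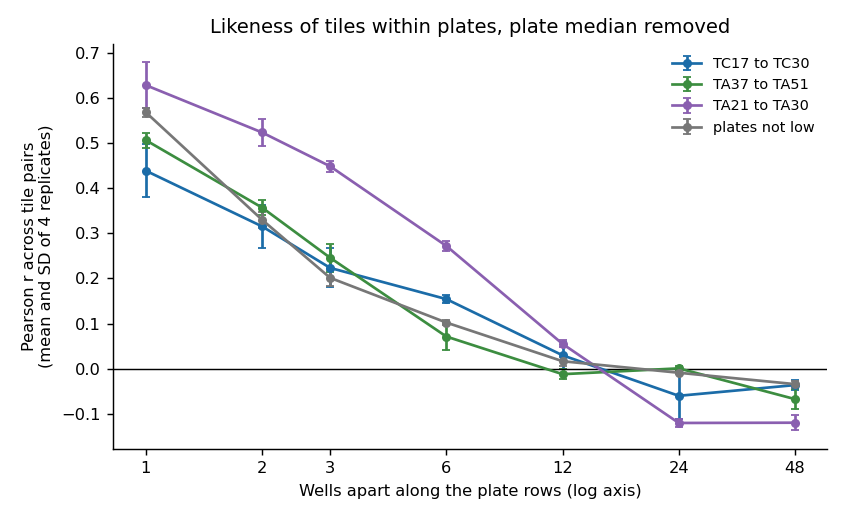
Pearson correlation across tile pairs within plates (y axis, mean and SD of 4 replicates, plate median removed) against their distance in wells along the plate rows (x axis, log scale). TC17 to TC30 starts at 0.44, below the other sets, and all sets are at 0.055 or lower at 12 wells.

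In the median over plates, the tiles of a plate spread less in level than on the low plates TA21 to TA30 and TA37 to TA51 in each replicate. Too few replicates exist to pass a test. The replicates also share their plates, so their agreement does not measure the variation between plates. The SD of tiles within a plate, as the median over plates, was 0.88, 0.81, 0.83 and 0.77 in replicates 1 to 4. The values were 1.44, 1.31, 1.45 and 1.29 on TA21 to TA30 and 0.98, 0.83, 1.01 and 0.82 on TA37 to TA51. Against both TA runs together, the difference was -0.30 ± 0.04, lower in 4 of 4 replicates. It was -0.09 ± 0.07 against TA37 to TA51 and -0.55 ± 0.05 against TA21 to TA30. In the exact two-sided sign-flip permutation test over the 4 replicates each of these had p = 0.125, the smallest this design allows, so none can pass 0.05. Among the 13 plates, TC21 was the most even, with an SD of 0.60 ± 0.06, and TC25 the least, with 1.43 ± 0.09. By place on the plate, row medians differed from their plate's by -0.23 ± 0.07 in row C to 0.12 ± 0.11 in row B, and column medians by -0.24 ± 0.02 in column 10 to 0.17 ± 0.04 in column 1. On the plates that are not low, which hold many more tiles, rows ran from -0.08 in row G to 0.03 in row F. Columns there ran from -0.06 in column 4 to 0.07 in column 7. Not every plate holds every row, and an effect of place was not tested.

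The replicates lay further apart on these tiles than on the plates that are not low. The SD over the 4 replicates had a median of 0.43 per tile, with quartiles of 0.24 and 0.60, against a median of 0.21 on the 188 plates that are not low. At equal level the gap persisted: for tiles with means from -2.5 to -2 it was 0.46 over 262 tiles of TC17 to TC30 and 0.22 over 288 tiles of the plates that are not low. It was 0.45 over 290 tiles of TA37 to TA51 and 0.26 over 150 of TA21 to TA30. The per-tile SD draws on all 4 replicates at once, so this difference has no replicates of its own and was not tested. The brightness of the spots was not analysed here.

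Tiles with replicates far apart were found on TC17 above all. An SD over 1 was found for 25 tiles of TC17 to TC30, out of 70 on the array, and 8 of the 25 were on TC17. Such an SD need not come from 1 discordant value. Tile TC17G02, with -3.04, -1.17, -2.90 and -1.11, had it through replicates 1 and 3 lying below 2 and 4. In 11 tiles, 5 of them on TC17, 1 replicate lay more than 1.5 below the other 3, of 17 such tiles on the array. That replicate was 1 in 5 tiles, 3 in 5 tiles and 2 in 1 tile. Tile TC17F12 had -1.97, -0.74, -4.82 and -0.79 in replicates 1 to 4, with an SD of 1.92, the largest in TC17 to TC30. Tile TC17G10 had -5.27, -1.48, -2.77 and -1.36, and TC19D02 had -2.55, -1.34, -5.15 and -1.31. In each of them replicate 1 or 3 was far below the rest. At the other end, TC24F01 had -2.17, -2.21, -2.20 and -2.17, an SD of 0.02, and TC27H10 and TC22H07 also had an SD under 0.03, at -2.38 and -2.97.

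Most of the spread followed a split of replicates 1 and 3 from 2 and 4, which no label gives. It was chosen from these values, so the counts below describe it and are no test of it. Across the tiles, the correlation was 0.941 for replicates 1 and 3 and 0.942 for 2 and 4, against 0.803 to 0.837 for the other pairs. Differences between replicates had an SD over the tiles of 0.35 for 1 and 3 and 0.31 for 2 and 4, against 0.55 to 0.62 for the other pairs. The mean of 1 and 3 minus the mean of 2 and 4 had a median of -0.67 over the 1098 tiles. It was below 0 in 945 of them, or 86.1%, against 54.7% of all tiles. That share was 83.9% on TA37 to TA51 and 65.2% on TA21 to TA30. In limma, 709 tiles were lower in 1 and 3, or 64.6%, and 20 were higher, or 1.82%, at an adjusted p under 0.05. Over all tiles these shares were 23.0% and 11.8%. On TA37 to TA51 they were 60.9% and 2.02%, and on TA21 to TA30 36.3% and 8.03%. Values of 1 and 3 both below those of 2 and 4 were found for 841 tiles of TC17 to TC30, or 76.6%, against 40.3% of all tiles. The share was similar on TA37 to TA51, at 74.3%, and 52.9% on TA21 to TA30.

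The size of the split depended on the scaling. It was -1.15 with the values as deposited and -0.28 after quantile normalization, which gives the replicates 1 distribution. After it 434 of the 1098 tiles were lower and 125 higher, so that 22.4% of the calls were higher in place of 2.74%. Over all 21285 tiles 3724 were lower and 3830 higher. The counts were 476 and 150 of 1339 tiles on TA37 to TA51, and 169 and 197 of 822 on TA21 to TA30. The plates also differed. Centred on the median tile, the split was -1.18 on TC17, -1.002 on TC28 and between -0.82 and -0.18 on the other 11. On TC28, 69 of 69 tiles were lower in replicates 1 and 3, and on TC29 94 of 96. After quantile normalization TC17 kept -0.96, TC28 -0.72 and TC29 -0.52, whereas the other 10 plates lay between -0.38 and 0.20, and TC22, TC23 and TC30 were above 0, at 0.02, 0.20 and 0.05. The 3 plates with the largest split under that scaling were thus among the 4 least low, and the fourth, TC30, did not share it.

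**Figure D5:**
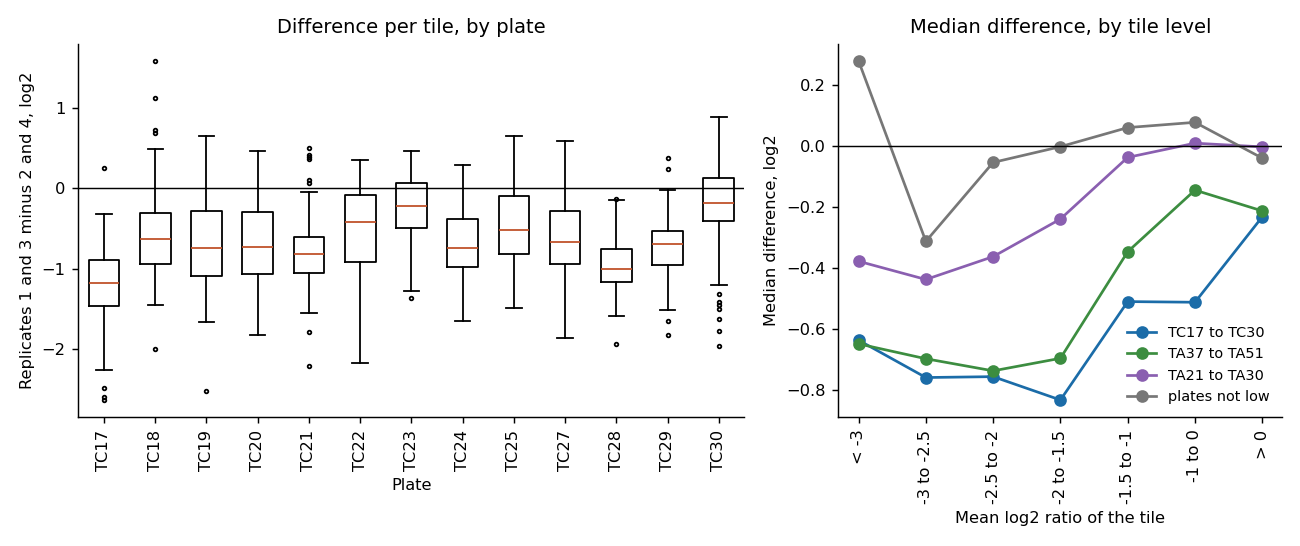
Left, the difference of each tile (y axis, mean of replicates 1 and 3 minus mean of 2 and 4, log2) by plate (boxes: median and quartiles, whiskers to 1.5 times the interquartile range, points beyond). Right, the median difference by tile level for TC17 to TC30, both TA runs and the plates that are not low; TC17 to TC30 lies at -0.76 for tiles between -2.5 and -2, where the plates that are not low lie at -0.05.

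The split varied with level and along the wells. In TC17 to TC30 its median was -0.83 for tiles with means from -2 to -1.5 and -0.23 for the 40 tiles above 0. At the former level it was -0.70 on TA37 to TA51, -0.24 on TA21 to TA30 and -0.0022 on the plates that are not low. On the last, the medians by level ran from -0.31 between -3 and -2.5 to 0.28 below -3. Within plates, with the plate median removed, the split of a tile correlated with that of the next well at 0.40, as on the plates that are not low, also at 0.40. This correlation was higher on the other low runs, at 0.59 on TA21 to TA30 and 0.47 on TA37 to TA51. At 3 wells it was 0.24 on TC17 to TC30, 0.27 on TA21 to TA30, 0.18 on TA37 to TA51 and 0.05 on the plates that are not low. On TC29 the 2 flat stretches near 0 had the split in 21 of 21 and 13 of 13 tiles, with a median of -0.57 in both, and the stretch on TC30 had 0.28.

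The labelled title pairs gave no calls. Replicates 1 and 2 against 3 and 4, the pairs with shared title numbers, gave 0 tiles of TC17 to TC30 at an adjusted p under 0.05 in limma, as on the whole array (0%). At an unadjusted p under 0.05 in that fit there were 4 tiles, or 0.36%, against 0.13% of all tiles. Replicate 1 against 2, 3 and 4, the labelled IP chromatin batches, has 1 sample in its first arm, with no spread of its own. Its calls would rest on the spread of the other 3 alone and are not given. In both comparisons the split of 1 and 3 from 2 and 4 lies within an arm and adds to the error. The count of 0 for the title pairs thus does not show that these groups were alike.

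Blank wells were few outside 1 plate. The 13 plates list 1133 wells, and 35 had no value in any replicate, 19 of them among the 77 wells listed for TC25. All 19 lay in rows A, C, E and G of that plate, and 18 were in even-numbered columns. This plate also held 6 of the 23 tiles above 0 in all replicates, 5 of them in rows B and F, without blanks. Its last 3 measured wells, in row G, had a median of 0.10 ± 0.33. The part of the blanks in these values was not tested.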

How the data were processed

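Per the labels, IP and input DNA were amplified, labelled directly with Cy3 and Cy5 and hybridised with a dye swap. The authors' deposited table holds log ratios, taken as log2: among values smaller than 0.01, 96.3%, 92.6%, 91.9% and 88.3% (replicates 1 to 4) lay within 0.1 of a whole multiple of the floating-point step of numbers from 8 to 16, where an even spread gives 20%. Another base is possible. How background was corrected, and how arrays were normalized and averaged, is not given in the sources used here. Scanner intensities were not analysed here, and the number of arrays limits the precision.

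The table has 21800 rows, of which 21761 carry a plate and well name and 21285 of these have a value in all 4 replicates. Each replicate was centred on its median, with no loess or quantile step. Tiles were tested with limma 3.58.1 in R 4.3.3 (lmFit, eBayes, two-sided, Benjamini-Hochberg over all 21285 tiles, threshold 0.05). The code was tried on simulated data with independent replicates. Those lack the likeness of replicates 1 and 3, and of 2 and 4, so that trial does not show how the p-values behave here. Other steps used Python 3.11.15, numpy 2.4.6, pandas 2.3.3, scipy 1.17.1 and matplotlib 3.10.9. The plates, the lists and the replicate split were chosen with earlier results of these data known. Named tiles are the 5 lowest and 5 highest means, the 3 largest and 3 smallest SDs, the first and last tile (TC17D01 at -1.88 and TC30F02 at -3.66), and the ends of the longest runs above and below 0. Other tiles were named after their values were seen, as were the stretches. Alternatives were the centring, quantile normalization, a 1.5-fold threshold, robust fitting, random blocks, wells and plates left out, and each replicate left out.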

Additional observations from a re-analysis of the deposited data

Results flagged for a closer look

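Dixon's test was run on 38 results with a value in each of the 4 replicates: the median of TC17 to TC30, its 13 plate medians, the within-plate SD, the neighbour correlation and 22 named tiles. It set 1 of them apart, where chance alone sets about 1 in 20 groups apart. Tile TC21F07, the end of the longest low run, had a mean of -2.11 and values of -1.89, -2.004, -1.93 and -2.61 in replicates 1 to 4. Replicate 4 lay below the others by 0.841 of the range, over Dixon's 95% critical value for 4 values. The test looks for 1 replicate apart and cannot flag a split of 2 against 2, such as that of replicates 1 and 3 from 2 and 4.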

How the results depend on the processing

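The centring sets the level: the median of TC17 to TC30 was -2.83 as deposited and -3.08 centred on the mode, settings that move the median of all tiles by -0.60 and -0.85, against -2.24. It lay between -2.27 and -2.20 with any 1 plate left out and between -2.35 and -2.12 without 1 replicate. The 1022 tiles called below, near the most that 1098 allow, became 971 to 1080, which says nothing about stability. The 22 called above became 5 as deposited, 3 on the mode and 7 with a threshold of 1.5-fold, and the cause was not tested beyond the construction of these settings. The split of replicates 1 and 3 from 2 and 4 was -1.15 as deposited, -0.28 after quantile normalization, -0.65 without the 4 plates with fewer wells (added after seeing the data) and -0.70 to -0.64 without 1 replicate. The pairs with shared title numbers gave 0 to 6 tiles without 1 replicate, 1 without replicate 3 and 6 without replicate 4, where the lone sample of an arm was taken to vary as much as the pair. The neighbour correlation of 0.51 was 0.14 down the columns, 0.44 with plate medians removed and 0.46 by Spearman. The within-plate spread stayed lower than on both TA runs together in all 7 alternatives. Against TA37 to TA51 alone the SD differed by -0.09 ± 0.07. Of these alternatives only the interquartile range was taken for it, at -0.17 ± 0.03. TC22C10 reversed to -0.32 as deposited and -0.57 on the mode, and TC22D01 to -0.085 on the mode. Of 242 tile results 226 kept their direction and side of the threshold, 3 reversed, of which 2 also missed it, and 13 missed it alone, among them TC17F12 without replicate 1 and TC22C10 without replicate 1, 2 or 3. No paired analysis was possible because only a single group exists, and each ratio already sets IP against input. Signal over background is unknown.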
